A study of Homo sapiens with 24 samples.

Results

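The genes described here encode the enzymes of the hexosamine biosynthetic pathway and of O-GlcNAc cycling. They were chosen by symbol as the 8 rows GFPT1, GFPT2, GNPNAT1, PGM3, UAP1, OGT, MGEA5 and NAGK among the 18889 genes of a gene expression table, and all 8 were found and tested. The table covers 3 human estrogen receptor-positive breast cancer cell lines, which are given below in the order MDA-MB-175, then ZR-75-30, then HCC1500. Each line was first conditioned in low-glucose medium and then kept for 48 h in serum-free medium with 5 mM glucose (low glucose, LG) or 25 mM glucose (high glucose, HG), the second standing for diabetic hyperglycemia. There were 4 replicate cultures in each of the 6 groups, 24 in all, and total RNA was sequenced on an Illumina HiSeq. Each line stands for 1 tumor only. The labels do not say whether the replicates came from separate passages, so p values measure the spread between these cultures, which may be technical. Cultures with mannitol in place of the added glucose were not analysed here.

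The hexosamine pathway is a side branch of glycolysis that takes fructose-6-phosphate, glutamine, acetyl-CoA and UTP and makes UDP-GlcNAc, the sugar donor for N-glycans, hyaluronan, glycolipids and O-GlcNAc. GFPT1 and GFPT2 are isoenzymes of the first and rate-limiting step, in which glutamine gives its amide nitrogen to fructose-6-phosphate. GNPNAT1 acetylates the resulting glucosamine-6-phosphate, PGM3 moves the phosphate from carbon 6 to carbon 1, and UAP1 joins the sugar to UTP. NAGK phosphorylates free GlcNAc from the breakdown of glycans and feeds it back into the route behind the first step. OGT places a single GlcNAc on serine and threonine residues of nuclear and cytoplasmic proteins, and the product of MGEA5, the O-GlcNAcase now named OGA, takes it off. The pair is known to answer to the supply of UDP-GlcNAc, which is why the pathway is often described as a sensor of glucose and other nutrients.

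In GRCh37 coordinates GFPT1 (ENSG00000198380) lies at chr2:69546912-69614382, GFPT2 (ENSG00000131459) at chr5:179727698-179780336, GNPNAT1 (ENSG00000100522) at chr14:53241911-53258386, PGM3 (ENSG00000013375) at chr6:83857043-83903655, and MGEA5 (ENSG00000198408) at chr10:103544200-103578222, all on the minus strand. UAP1 (ENSG00000117143) at chr1:162531512-162571030, OGT (ENSG00000147162) at chrX:70752937-70795742 and NAGK (ENSG00000124357) at chr2:71291474-71306938 lie on the plus strand. All 8 are protein-coding genes, and values were read per gene, not per exon or UTR. Exons of GNPNAT1, PGM3 and NAGK overlap genes on the opposite strand over 1426, 1546 and 348 bases, respectively. The study's methods name a stranded kit for its tumors, but the kit and strand setting of these cultures are not given in the sources used here, so part of the reads of these 3 genes may belong to their neighbors.

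The promoters of 3 genes whose changes are described below are shown here so that their sequence can be seen beside those changes: GNPNAT1, which was lower in high glucose in every line, and the cycling pair of OGT and MGEA5. They are RefSeq windows on GRCh38.p14, printed 5′ to 3′ on the strand of the gene from base 250 to base 31 before the start of transcription. Capitals mark matches, on either strand, to the motifs spelled out after the sequences.
GNPNAT1, chr14:52791638-52791857, minus strand: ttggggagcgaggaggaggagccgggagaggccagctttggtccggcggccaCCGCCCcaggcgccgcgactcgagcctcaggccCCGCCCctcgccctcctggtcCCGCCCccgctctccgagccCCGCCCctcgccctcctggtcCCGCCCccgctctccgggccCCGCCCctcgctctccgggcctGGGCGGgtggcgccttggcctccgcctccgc
MGEA5 (OGA), chr10:101818475-101818694, minus strand: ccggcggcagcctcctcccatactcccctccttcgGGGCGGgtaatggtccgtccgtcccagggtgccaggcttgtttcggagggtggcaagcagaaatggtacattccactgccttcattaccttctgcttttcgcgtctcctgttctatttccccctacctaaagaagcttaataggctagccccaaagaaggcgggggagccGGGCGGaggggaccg
OGT, chrX:71532854-71533073, plus strand: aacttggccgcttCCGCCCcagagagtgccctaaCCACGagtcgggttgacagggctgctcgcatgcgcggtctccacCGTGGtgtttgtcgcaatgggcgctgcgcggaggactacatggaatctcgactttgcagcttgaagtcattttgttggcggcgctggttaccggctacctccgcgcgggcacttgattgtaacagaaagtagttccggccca
The windows, which run from 250 bases before to 50 bases after a start site, were searched for the CACGTG box of MYC and USF factors, for CCACG, the core of the XBP1 site, for TGATGNAA, the core of the ATF4 site, and for GGGCGG, the Sp1 box. All 8 genes had at least 1 window, with 2 windows for PGM3 and NAGK and 3 overlapping windows for UAP1. GGGCGG occurred in a window of all 8 genes and in 45.0% of all 35116 windows in the RefSeq table. CCACG occurred in 7 of the 8 genes, MGEA5 being the exception, and in 38.1% of all windows. A gene was counted if any of its windows held the motif, so these counts are not in the same unit as the shares. CCACG was in only part of the windows of PGM3, UAP1 and NAGK, and GGGCGG in only part of those of NAGK. CACGTG (7.26% of all windows) and TGATGNAA (3.62%) were in none of the 8 genes' windows, which says only that these letters are not there. GNPNAT1 carried 7 copies of GGGCGG in its window, against 5 in GFPT2, 4 in GFPT1, 3 or 4 in each of the overlapping windows of UAP1, 3 in MGEA5 and 1 in OGT. Motif matches are a description of sequence, and binding was not measured.

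The deposited values are read counts divided by 1 factor per culture, called normalized read counts below. The totals behind them ran from 9140024 to 17998819 reads per culture, and 3 reads, taken as the floor of detection for counting error, correspond to 0.953 to 2.29 normalized read counts. All 8 luminal markers (ESR1, GATA3, FOXA1, KRT8, KRT18, KRT19, EPCAM and CDH1) were above 10 in every line on average. CDH1 was far lower in ZR-75-30, with a mean of 56.1, than in HCC1500 (7331). In ZR-75-30 it lay below the fibroblast marker COL1A1 (97.7). Summed fibroblast markers reached 295 at most, against 30778 or more for the luminal markers, and CD68 was the single leukocyte marker of 5 in the table (0.670 to 43.9), and the endothelial markers VWF and CDH5 summed to 77.7 at most. Among these markers, CD68 was higher in high glucose in MDA-MB-175 and ZR-75-30 (log2 change 1.18 and 2.55) and in HCC1500 without HG3 (0.95). With all HCC1500 cultures it was not called (limma adjusted p = 0.078). Its mean went from 2.53 to 6.82 in MDA-MB-175. In HCC1500 without HG3 it went from 0.943 to 2.82, close to the floor. LUM, a fibroblast marker, was higher in MDA-MB-175 (1.37) and HCC1500 (0.67, or 0.63 without HG3). Other fibroblast markers were lower, COL1A2 in MDA-MB-175 (−0.78) and COL1A1 in HCC1500 without HG3 (−0.39). Of the endothelial markers in MDA-MB-175, CDH5 was higher (0.61) and VWF lower (−0.48). Of the 8 luminal markers, 1 was higher and 4 lower in MDA-MB-175, 1 higher and 5 lower in ZR-75-30, and 1 lower in HCC1500 (3 higher and 5 lower without HG3). The shares over all genes are given with the glucose comparison of each line. The part of such shifts in the results was not tested, and in bulk RNA fewer cells of a kind and less RNA per cell cannot be told apart. The glucose label was checked with TXNIP, a gene switched on by glucose, which was higher in all HG cultures than in any LG culture of the same line. One library stood apart. The third high-glucose culture of HCC1500, HG3, had a mean correlation of 0.944 with the other cultures of its group, against at least 0.990 for every other culture, HG3 being left out of the means of the others. Its deviations also ran against transcript length (Spearman's rho = −0.68 across 12934 genes, against −0.38 to 0.31 in the other cultures, genes not being independent replicates). The comparisons of the 8 genes in HCC1500 are therefore given with and without HG3.

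**Figure D1:**
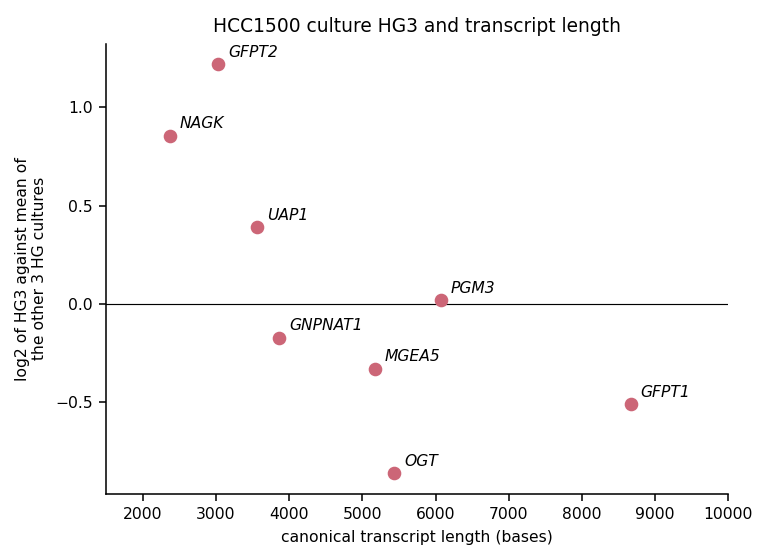
The vertical axis is log2(normalized read count + 1) in HCC1500 culture HG3 minus the mean of the same log2 values in the other 3 high-glucose cultures. The horizontal axis is canonical transcript length in bases, with 1 point per gene. NAGK and GFPT2, the genes with the shortest transcripts, lie highest at 0.86 and 1.22, and OGT (−0.86) and GFPT1 (−0.51) lie lowest. UAP1 (0.39), PGM3 (0.02), GNPNAT1 (−0.17) and MGEA5 (−0.33) lie between them. The order does not follow length throughout, as PGM3 (6079 bases) has a longer transcript than OGT (5435). The GFPT2 point rests on 24 reads in HG3.

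The members were not equally touched by that culture. HG3 held 955 normalized read counts of OGT where the other HG cultures held 1651 to 1799, and 437 of NAGK where the others held 231 to 259.6. GFPT1 stood at 665 against 941 to 959, while PGM3, at 264, was inside the range of the others.

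Levels were first compared between genes and between lines in low glucose. To compare genes with one another, values were divided by the length of the canonical transcript. Per kb, GFPT2 was lowest in all 3 lines, at 0.232 ± 0.141 (SD, n = 4), 1.10 ± 0.460 and 2.20 ± 0.438 in the order of lines above, so that GFPT1 was the main GFPT transcript of each line at 132 ± 5.07, 249 ± 1.67 and 112 ± 3.49. In MDA-MB-175 the order per kb was GNPNAT1 (313), UAP1 (285), MGEA5 (191), OGT (137), GFPT1 (132), NAGK (117) and PGM3 (83.9), and OGT and GFPT1 overlapped. In ZR-75-30 it was UAP1 (815), GNPNAT1 (337), MGEA5 (264), GFPT1 (249), NAGK (152), PGM3 (128) and OGT (106), with no overlap between neighbors. In HCC1500 it was OGT (332), GNPNAT1 (266), MGEA5 (219.5), NAGK (125), GFPT1 (112), UAP1 (92.0) and PGM3 (44.6), and NAGK and GFPT1 overlapped. OGT thus headed the list in HCC1500 and stood next to last in ZR-75-30, whereas UAP1 headed it in ZR-75-30 and stood above only PGM3 and GFPT2 in HCC1500.

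**Figure D2:**
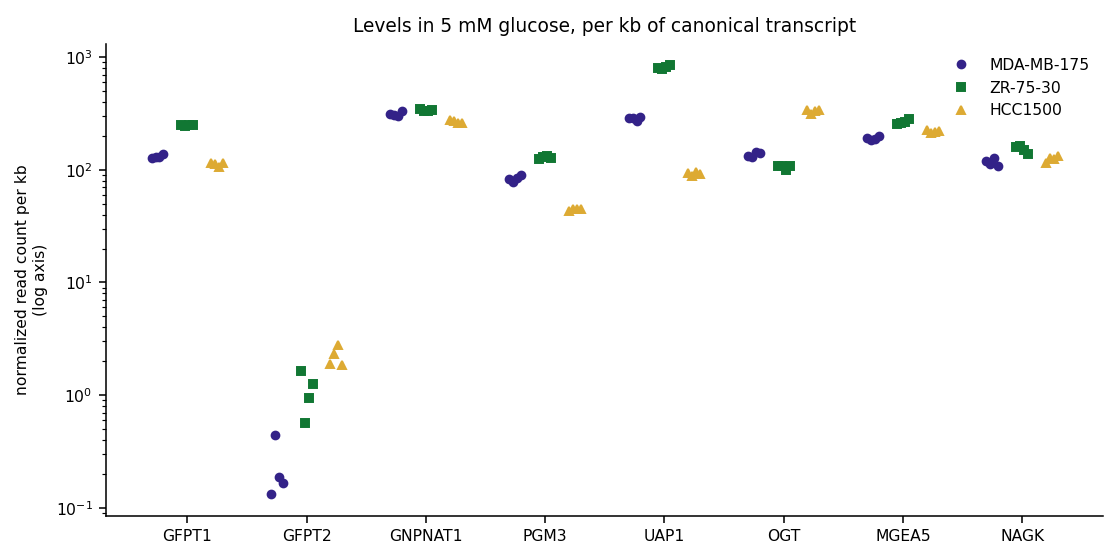
Normalized read counts per kb of canonical transcript in 5 mM glucose on a log axis, 1 symbol per culture (4 per line) and 1 color and shape per cell line. UAP1 spans from about 92.0 in HCC1500 to 815 in ZR-75-30, GNPNAT1 varies least, and GFPT2 lies below all other genes.

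The same genes were then compared between lines in low glucose (limma on log2(value + 1), all 24 cultures in the fit, Benjamini-Hochberg adjustment over 18144 genes). Of the 8 genes, 7 differed between MDA-MB-175 and ZR-75-30, where 63.8% of all genes did, 7 between MDA-MB-175 and HCC1500 (72.6% of all genes) and 7 between ZR-75-30 and HCC1500 (73.0%). GFPT2, which is near the floor, is among them in each pair. The sizes of the differences varied widely. UAP1, the last enzyme of the route, had 2900.5 ± 81.3 normalized read counts (SD, n = 4) in ZR-75-30, 1013 ± 27.7 in MDA-MB-175 and 327 ± 10.6 in HCC1500, 8.84-fold between the outer lines (log2 difference 3.14 ± 0.07, SE, adjusted p = 6.8e-21). PGM3 followed the same order, with 780.0 ± 17.5, 510.0 ± 29.9 and 271 ± 4.57, 2.87-fold between ZR-75-30 and HCC1500 (adjusted p = 1.2e-18). GFPT1 was also highest in ZR-75-30, with log2 differences of −0.92 for MDA-MB-175 against ZR-75-30 and 1.15 for ZR-75-30 against HCC1500.

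OGT ran the other way. It had 1805 ± 65.8 normalized read counts in HCC1500, 743 ± 33.5 in MDA-MB-175 and 578 ± 24.2 in ZR-75-30, and the log2 difference of ZR-75-30 from HCC1500 was −1.64 ± 0.13 (SE, adjusted p = 6.3e-11). The difference between MDA-MB-175 and ZR-75-30 was 0.36 (adjusted p = 0.016), and it did not pass with median-of-ratios or TMM scaling, edgeR or DESeq2 (adjusted p = 0.12 to 0.16). MGEA5 varied less, from 989.8 ± 37.8 in MDA-MB-175 to 1136 ± 30.6 in HCC1500 and 1367 ± 60.0 in ZR-75-30. GNPNAT1 was the most even of the expressed genes, at 1209.7 ± 47.3, 1305 ± 27.4 and 1029.5 ± 30.8 in the order of lines above, and MDA-MB-175 and ZR-75-30 did not differ by the test (adjusted p = 0.082, 95% CI of the log2 difference −0.22 to 0.0024). That GNPNAT1 difference did pass without HCC1500 HG3 (adjusted p = 0.021) and in 6 of 13 alternatives. NAGK was 277 ± 18.6, 361 ± 24.5 and 296 ± 18.5, and the differences of MDA-MB-175 and ZR-75-30 from HCC1500 did not pass (adjusted p = 0.55, 95% CI −0.38 to 0.19, and adjusted p = 0.073, 95% CI −0.0061 to 0.57). Without HG3, whose spread enters this fit, the difference of 0.28 between ZR-75-30 and HCC1500 passed (adjusted p = 0.0016).

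Scaling matters for differences this small between lines. The median log2 difference of all genes was 0.18 for MDA-MB-175 over ZR-75-30 and −0.23 for ZR-75-30 over HCC1500 as deposited, and 0.29 and −0.43 in CPM. The share of called genes that were higher in the first line moved from 61.9% to 72.4% and from 39.8% to 29.5%, respectively. UAP1, PGM3 and OGT kept the directions given above for ZR-75-30 against HCC1500 in every alternative, as did GFPT1, whereas GNPNAT1, MGEA5 and NAGK changed sign there in CPM, and GNPNAT1 did so between MDA-MB-175 and ZR-75-30 as well.

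GFPT2 needs separate mention because of its depth. In MDA-MB-175 it had 1 to 4 reads per culture, giving 0.401, 1.34, 0.569 and 0.509 normalized read counts in LG1 to LG4 and 1.66, 1.14, 1.17 and 1.58 in HG1 to HG4. In ZR-75-30 it had 3 to 9 reads and in HCC1500 9 to 24. No change with glucose was detectable at this depth in any line (limma adjusted p = 0.33, 0.73 and 0.45). Any log2 value printed for GFPT2 elsewhere rests on these few reads.

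The main question of the design was whether high glucose changed these genes within each line. Each line was fitted on its own 8 cultures with limma. In MDA-MB-175, 4 of the 8 genes passed at an adjusted p under 0.05, which compares with 25.7% of the 17029 genes tested. MGEA5 and OGT were higher (11.9% of all genes were) and GNPNAT1 and UAP1 were lower (13.7%). In the same 4 genes the LG and HG cultures did not overlap, as in 26.6% of all genes. In ZR-75-30, 7 of 8 passed, against 46.0% of 15834 genes. GFPT1, OGT and MGEA5 were higher (23.4% of all genes) and GNPNAT1, PGM3, UAP1 and NAGK lower (22.7%), again without overlap between groups in those 7 genes (42.0% of all genes). In HCC1500, 1 of 8 passed, GNPNAT1, which was lower. The share was 20.5% of 16361 genes, with 7.46% higher and 13.0% lower, and groups did not overlap in 1 of 8 genes and in 32.4% of all genes. Without HG3, 3 of 8 passed: GNPNAT1 and NAGK were lower and MGEA5 higher. The background was then 58.5% of 16235 genes, with 20.9% higher and 37.7% lower, and the cultures of 58.1% of all genes did not overlap, as those of 3 of the 8 did. The median log2 change of the 8 genes was 0.10, −0.19 and −0.07 in the order of lines above and −0.04 for HCC1500 without HG3, beside −0.02, 0.01, −0.06 and −0.12 over all genes tested.

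**Figure D3:**
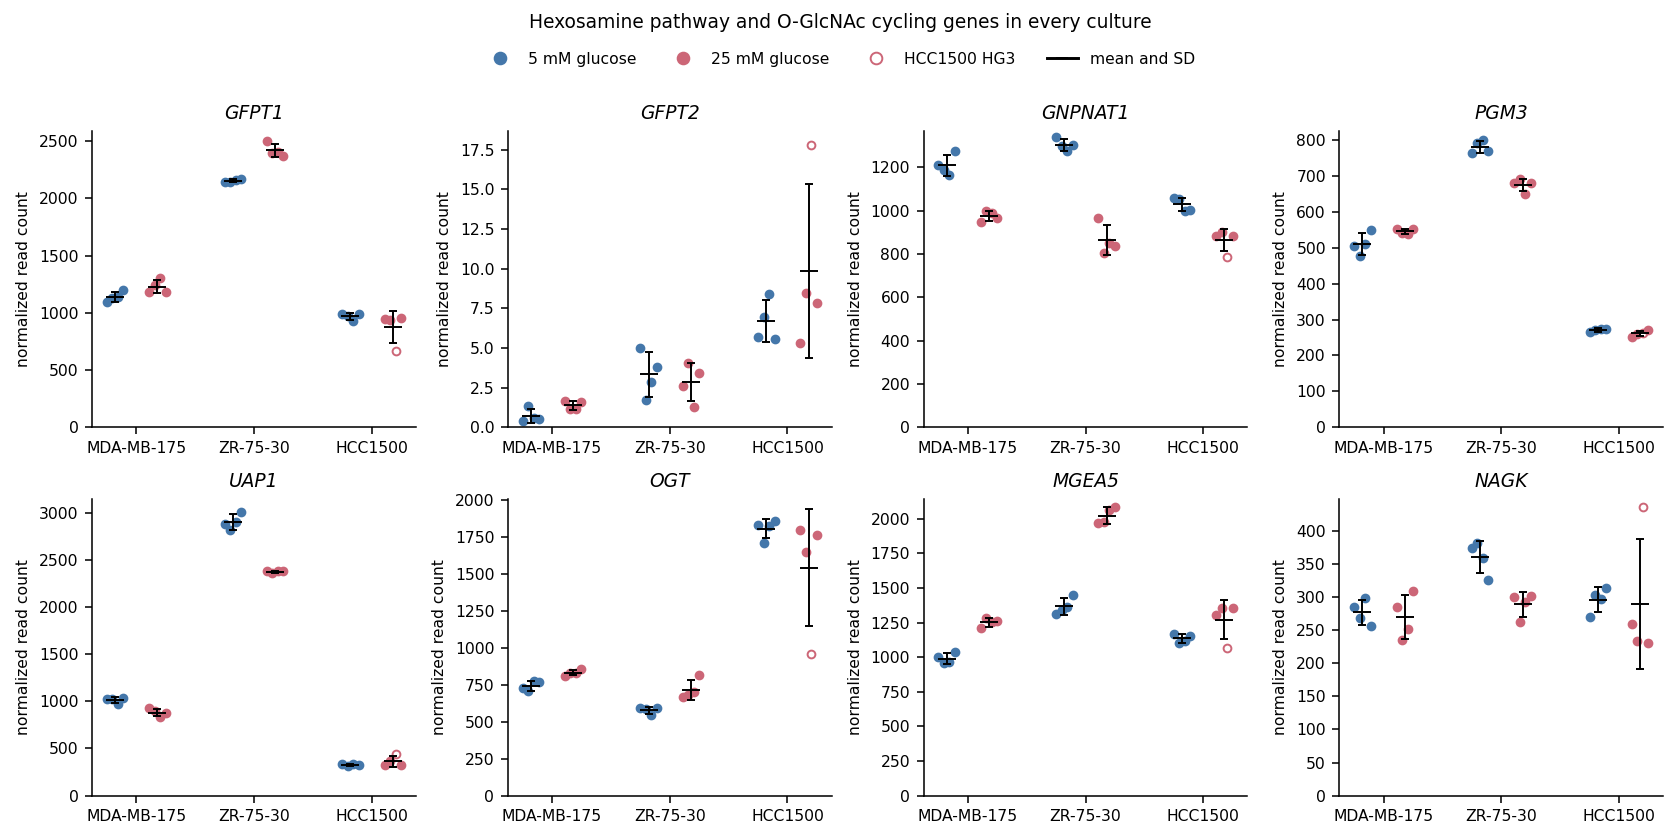
Normalized read counts (vertical axes, each from 0) of the 8 genes in each of 24 cultures, with 5 mM glucose in blue and 25 mM in red, the open circle for HCC1500 HG3, and the mean with SD (n = 4) in black. GNPNAT1 is lower in the red points of each line, and MGEA5 is higher, HG3 excepted.

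GFPT1, which sets the entry into the pathway, changed by little. In ZR-75-30 it rose from 2145, 2141, 2165 and 2169.8 in LG1 to LG4 to 2499.7, 2398, 2404 and 2373 in HG1 to HG4 (1.12-fold, log2 change 0.17 ± 0.03, SE, adjusted p = 0.00041). In MDA-MB-175 it had 1099, 1129.7, 1135 and 1203 in LG1 to LG4 and 1184, 1246, 1305 and 1182 in HG1 to HG4. These overlapped, and the difference of 0.11 did not pass (adjusted p = 0.097), although it did without LG4 (0.13, adjusted p = 0.022), with sample weights and with the length trend removed. In HCC1500 it had 993, 969, 926 and 987 in LG1 to LG4 and 945, 941, 665 and 959 in HG1 to HG4, with no change by the test (adjusted p = 0.42, and 0.44 without HG3).

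GNPNAT1, the acetyltransferase of the route, was the member that fell in all 3 lines. In MDA-MB-175 it went from 1213, 1187, 1164 and 1274 to 948, 999.7, 991 and 967, a log2 change of −0.31 ± 0.04 (SE, adjusted p = 4.0e-05). In ZR-75-30 it went from 1342, 1298, 1277 and 1303 to 965, 806, 852 and 837, the largest fall among the 8 genes, with a log2 change of −0.60 ± 0.05 (adjusted p = 9.7e-09). In HCC1500 it went from 1059, 1053, 1000.5 and 1005 to 883, 901, 789 and 882, a log2 change of −0.25 ± 0.07 (adjusted p = 0.042). In each line the highest HG culture lay below the lowest LG culture. The call in HCC1500 is fragile: it was lost when any 1 of the other 7 cultures was left out (adjusted p = 0.066 to 0.13) and under 8 of 13 other settings, and it was made without HG3 (−0.21, adjusted p = 1.7e-05), the lowest culture of the group.

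PGM3, the phosphate mutase of the next step, fell in 1 line. In ZR-75-30 it went from 762, 792, 798 and 768 to 681, 689.9, 650.2 and 679, without overlap (log2 change −0.21 ± 0.04, adjusted p = 0.00025). In MDA-MB-175 it had 505, 476, 511 and 548 in low and 552, 539.6, 539 and 552 in high glucose, and the groups overlapped (0.10, adjusted p = 0.16). Without LG4, the highest LG culture, that difference passed (0.13, adjusted p = 0.028). In HCC1500 it was close to level, at 265 to 275 in low and 252 to 270.0 in high glucose (adjusted p = 0.65, and 0.30 without HG3).

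UAP1, which makes UDP-GlcNAc itself, fell in MDA-MB-175 and ZR-75-30. It went from 1022, 1019.8, 974 and 1038 to 926, 893, 828 and 873 in MDA-MB-175 (log2 change −0.20 ± 0.04, adjusted p = 0.0026). It went from 2879, 2816, 2896 and 3011 to 2377, 2357, 2376 and 2377 in ZR-75-30 (−0.29 ± 0.03, adjusted p = 1.0e-06). HCC1500 had 330.3, 313, 338 and 329 in low and 324, 369.6, 443 and 321 in high glucose, the highest being HG3, and did not pass (0.14, adjusted p = 0.43, and 0.04 with adjusted p = 0.49 without HG3). With the length trend removed it did pass there (0.23, adjusted p = 0.038). The sign was positive in each of these fits, opposite to the other lines.

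NAGK, the salvage kinase, fell in ZR-75-30 from 374, 382, 359 and 327 to 300.5, 262, 293 and 302 (log2 change −0.32 ± 0.06, adjusted p = 0.00033). MDA-MB-175 had 257 to 299 in low and 235 to 309.7 in high glucose, and the groups overlapped (−0.04, adjusted p = 0.76). In HCC1500 it had 271, 303, 298 and 314 in low and 259.6, 233, 437 and 231 in high glucose. With all cultures it did not pass, and without HG3, the highest culture, all 3 remaining HG cultures lay below the LG cultures (−0.30 ± 0.06, adjusted p = 0.00026).

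OGT rose in MDA-MB-175 from 727, 704, 774 and 768 to 810.0, 832, 832 and 856 (log2 change 0.16 ± 0.04, adjusted p = 0.011, or 0.055 without the intensity trend). It rose in ZR-75-30 from 593, 584, 542 and 592 to 667, 678, 699.9 and 814 (0.30 ± 0.06, adjusted p = 0.00022). The HG cultures lay above the LG cultures in both lines. In HCC1500, where OGT was highest, it had 1832, 1709, 1821 and 1859 in low and 1799, 1651, 955 and 1761 in high glucose, and the groups overlapped (−0.27, adjusted p = 0.37). Without HG3 the difference was −0.06 (95% CI −0.13 to 0.02, adjusted p = 0.18).

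MGEA5, which removes what OGT adds, showed the largest rise among the 8 genes in ZR-75-30. There it went from 1309.6, 1344, 1365 and 1451 to 1969, 1973, 2062 and 2086 (1.48-fold, log2 change 0.56 ± 0.04, adjusted p = 1.3e-09). In MDA-MB-175 it rose from 998, 959, 962 and 1039.7 to 1208, 1285, 1251 and 1258 (0.34 ± 0.04, adjusted p = 1.6e-05). HCC1500 had 1169.8, 1104, 1116 and 1153 in low and 1305, 1355, 1066 and 1356 in high glucose. HG3 was the single HG culture of that line below the LG range. With all cultures the difference of 0.15 did not pass (adjusted p = 0.29), and without HG3 it was 0.24 ± 0.03 (adjusted p = 2.9e-06).

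**Figure D4:**
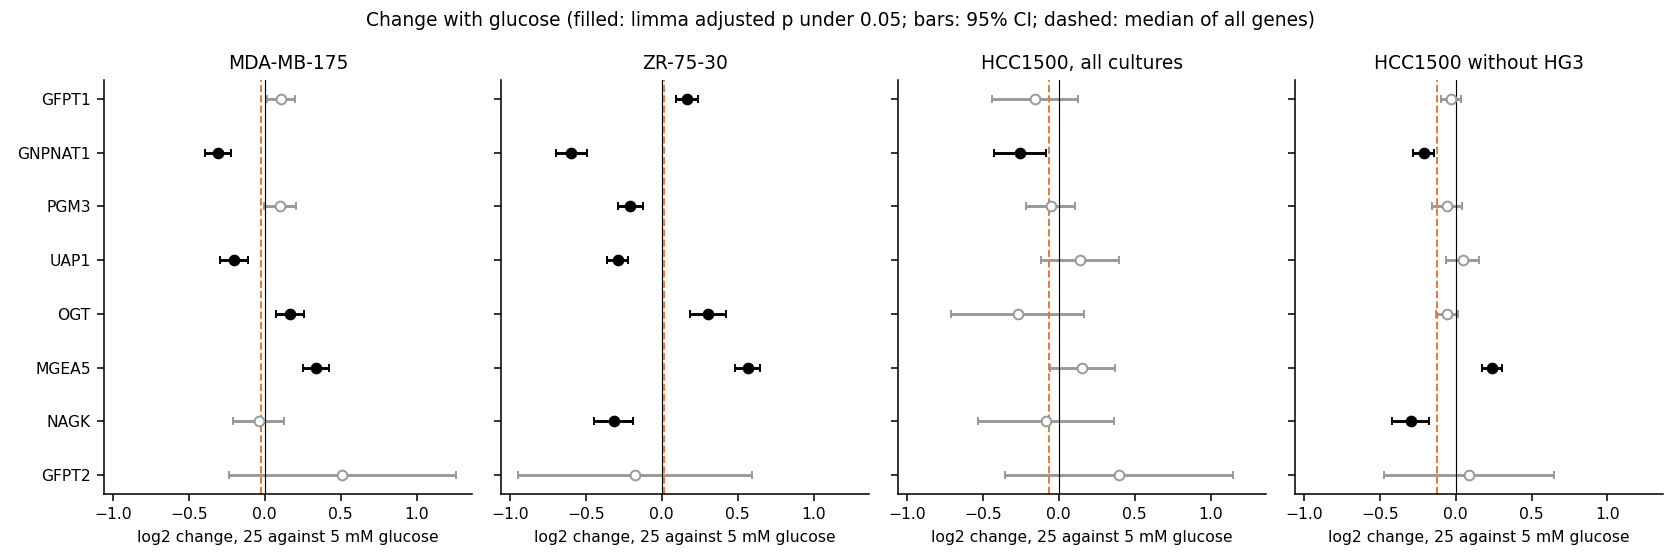
Log2 change of each gene in 25 mM against 5 mM glucose (horizontal axis) with its 95% CI, for the 3 lines and for HCC1500 without HG3. Filled black points have a limma adjusted p under 0.05, open gray points do not, and the dashed line is the median of all genes tested. GNPNAT1 is filled on the left in every panel, and MGEA5 is filled on the right in all panels but that of HCC1500 with all cultures.

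The scale of HCC1500 without HG3 was itself off center. The median change of all genes was −0.12 in the deposited values and −0.01 after median-of-ratios scaling, and the share of called genes that were higher was 35.7% and 50.5%, respectively. With all cultures it was 36.4% as deposited and between 29.8% and 52.4% over the other scalings and count models. On the median-of-ratios scale, and without HG3, 5 of the 8 genes passed. GNPNAT1 and NAGK were lower, at −0.09 (adjusted p = 0.020) and −0.18 (adjusted p = 0.013), and MGEA5, UAP1 and GFPT1 were higher, at 0.36 (adjusted p = 1.3e-08), 0.16 (adjusted p = 0.013) and 0.09 (adjusted p = 0.026). The directions of GNPNAT1, MGEA5 and NAGK were therefore the same on both scales without HG3. OGT and PGM3 changed sign between the scales and did not pass on either.

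Averaged over the 3 lines in the fit of all 24 cultures, GNPNAT1 (−0.39 ± 0.03, SE, adjusted p = 1.4e-09) and UAP1 (−0.12 ± 0.04, adjusted p = 0.028) were lower and MGEA5 was higher (0.35 ± 0.04, adjusted p = 4.5e-08), 3 of 8 genes against 35.9% of 18144. UAP1 lost its call without MDA-MB-175 HG3, HCC1500 HG1 or HCC1500 HG4 (adjusted p = 0.053 for each) and with the length trend removed (adjusted p = 0.079). Without HCC1500 HG3, 7 of 8 passed, against 49.7% of all genes, and the further members were GFPT1 (0.08) and OGT (0.14), which were higher, and PGM3 (−0.06) and NAGK (−0.22), which were lower.

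By the interaction test, 5 of the 8 genes changed to a different degree in different lines (29.3% of all genes did): PGM3 (adjusted p = 0.0027), GNPNAT1 (0.0029), MGEA5 (0.0032), UAP1 (0.0042) and OGT (0.040). PGM3 and UAP1 kept this call in every alternative and without any 1 culture. OGT lost it when any 1 of 15 cultures was left out (adjusted p up to 0.076). OGT and MGEA5 both lost it with median-of-ratios, TMM or CPM scaling, edgeR and DESeq2, and GNPNAT1 lost it with CPM scaling. Of 13 alternatives, OGT kept the call in 6, MGEA5 in 8 and GNPNAT1 in 12. Without HCC1500 HG3, 6 of 8 passed, against 48.6% of all genes, GFPT1 being the addition (adjusted p = 0.0054). The estimates for GNPNAT1 had the same sign in all 3 lines, as did those for MGEA5, which did not pass in HCC1500 with all cultures, and both were largest in ZR-75-30. The estimates for UAP1, PGM3 and OGT had different signs in different lines. Those that ran opposite to a called change did not pass in the main test: UAP1 (0.14) and OGT (−0.27) in HCC1500, and PGM3 (0.10) in MDA-MB-175.

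Because OGT and MGEA5 act on the same residues in opposite directions, their ratio was compared within each culture, where the scaling factor drops out. The ratio was lower in high glucose in all 3 lines. In MDA-MB-175 it was 0.728, 0.734, 0.805 and 0.738 in low and 0.671, 0.647, 0.665 and 0.681 in high glucose, a log2 change of −0.17. In ZR-75-30 it was 0.453, 0.435, 0.397 and 0.408 in low and 0.339, 0.344, 0.339 and 0.390 in high glucose, a log2 change of −0.26. In HCC1500 it was 1.57, 1.55, 1.63 and 1.61 in low and 1.38, 1.22, 0.896 and 1.30 in high glucose, a log2 change of −0.43. No HG culture of any line reached the lowest LG culture of the same line. Each line gave the smallest two-sided p that an exact permutation test of 4 against 4 allows, 0.029, or 0.043 after adjustment over 6 tests. Without HG3 the change in HCC1500 was −0.29, with an exact permutation p of 0.057, again the smallest possible for 4 against 3. Both genes rose in MDA-MB-175 and ZR-75-30, MGEA5 by more than OGT. This is a ratio of transcripts, and neither protein nor O-GlcNAc was measured here.

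The ratio of GFPT1 to NAGK sets entry from glucose beside salvage of GlcNAc. In ZR-75-30 it was 5.73, 5.60, 6.03 and 6.64 in low and 8.32, 9.15, 8.20 and 7.85 in high glucose, a log2 change of 0.48 without overlap (exact permutation p = 0.029, adjusted 0.043). In MDA-MB-175 it ranged from 3.80 to 4.68 and from 3.82 to 5.30 (exact permutation p = 0.34). In HCC1500 it ranged from 3.11 to 3.67 in low and from 1.52, in HG3, to 4.15 in high glucose (exact permutation p = 0.97). Without HG3 the change there was 0.27 (exact permutation p = 0.11).

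**Figure D5:**
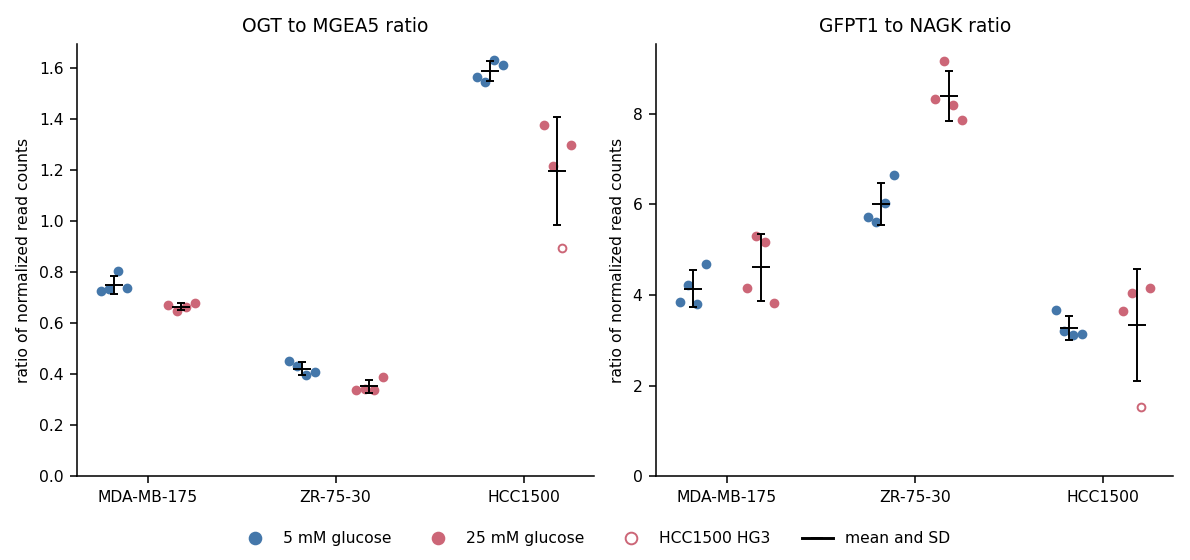
Ratio of normalized read counts of OGT to MGEA5 (left) and of GFPT1 to NAGK (right), both vertical axes from 0, in each culture of the 3 lines, with the mean and SD (n = 4) in black and HCC1500 HG3 as the open circle. The left ratio is lower in red than in blue in each line, and the right ratio separates by glucose in ZR-75-30, from 5.60 to 6.64 against 7.85 to 9.15.

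Genes around the pathway were read from 8 lists of 71 symbols, of which HAS1 was not found in the table. The counts of each list are to be read beside the shares of all genes, which were 11.9% higher and 13.7% lower in MDA-MB-175, 23.4% and 22.7% in ZR-75-30, 7.46% and 13.0% in HCC1500, and 20.9% and 37.7% there without HG3. Several counts lie near those shares, and none was tested against them. The list of amino sugar turnover (GNPDA1, GNPDA2, AMDHD2, RENBP, NPL and UAP1L1) holds UAP1L1 beside enzymes that break down or interconvert the intermediates. In this list 4 of 6 rose in MDA-MB-175 and 4 of 6 in ZR-75-30 and the others did not pass. In HCC1500 1 of 6 rose, or 3 of 6 without HG3. The medians of 0.29, 0.34 and 0.23 (0.16 without HG3) stood above those of all genes. UAP1L1, a paralog of UAP1, rose in all 3 lines, with 150.0 ± 16, 111 ± 15.8 and 252 ± 1.38 normalized read counts (SD, n = 4) in low glucose and 227 ± 10.2, 296 ± 7.73 and 513 ± 86.7 in high glucose, in the order of lines above. Its log2 changes were 0.60, 1.41 and 1.01 (0.89 without HG3), where those of UAP1 were −0.20, −0.29 and 0.14 (0.04 without HG3). RENBP, a GlcNAc epimerase, had the largest change of the list, from 1.45 ± 1.26 to 15.7 ± 3.70 in MDA-MB-175 (2.91 on the log2(value + 1) scale, adjusted p = 2.2e-05), with the LG level at the floor of detection. In ZR-75-30 it rose from 3.40 ± 1.92 to 15.1 ± 1.56 (1.95, adjusted p = 2.5e-05). In HCC1500 it did not pass with all cultures (1.49, adjusted p = 0.059) but passed without HG3 (1.34, adjusted p = 0.024).

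In the list of substrate supply (14 genes of glucose phosphorylation, glutamine uptake and synthesis, and UTP synthesis), 6 rose and 1 fell in MDA-MB-175, 5 rose and 3 fell in ZR-75-30, and 1 rose and 1 fell in HCC1500 (3 and 5 without HG3), with medians of 0.00, 0.04 and 0.02 (−0.05 without HG3). SLC38A2, a glutamine and alanine transporter, rose in all 3 lines, by 1.19 and 0.25 on the log2 scale in MDA-MB-175 and ZR-75-30, while HCC1500 went from 4699 ± 63.2 to 15734 ± 2624 (1.73 on the log2 scale, adjusted p = 0.00010, or 1.86 without HG3). Of 10 genes that use or carry UDP-GlcNAc and related sugars, 2 rose and 3 fell in MDA-MB-175 and 1 rose and 5 fell in ZR-75-30. In HCC1500 1 rose, and without HG3 4 rose and 6 fell. The medians were −0.02, −0.32 and −0.06 (−0.17 without HG3). GNE, the first enzyme of sialic acid synthesis, rose in MDA-MB-175 from 851 ± 26.1 to 1333 ± 49.2 (0.65, adjusted p = 1.4e-08) and was near the floor in HCC1500.

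Of 9 genes that start or branch N-glycans, 2 rose and 1 fell in MDA-MB-175, 2 rose and 2 fell in ZR-75-30, and 2 fell in HCC1500 (4 without HG3), with medians of −0.05, 0.01 and −0.15 (−0.23 without HG3). MGAT3, which adds the bisecting GlcNAc, had the largest change, from 19.3 ± 4.30 to 10.4 ± 1.12 in MDA-MB-175 (−0.81, adjusted p = 0.0064). In the short list of other GlcNAc polymers and transferases, HAS3, a hyaluronan synthase that consumes UDP-GlcNAc, fell in all 3 lines. MDA-MB-175 had 107 ± 13.4 in low and 69.2 ± 3.65 in high glucose, and HCC1500 had 95.6 ± 8.38 and 64.4 ± 6.49. ZR-75-30 had 4.30 ± 2.33 in low glucose and 1.28 ± 0.304, near the floor, in high glucose (log2 changes −0.61, −1.13 and −0.56, the last −0.50 without HG3). It was the single gene of that list to pass, and the medians over the 2, 2 and 3 genes tested were −0.34, −0.60 and −0.30 (−0.22 without HG3). Among 10 partners and substrates of OGT, 2 fell in each line and the other 8 did not pass, and without HG3 3 rose and 5 fell in HCC1500. Their medians were −0.03, −0.11 and −0.07 (−0.10 without HG3). TRAK1, a mitochondrial adaptor that carries O-GlcNAc, fell in HCC1500 from 451 ± 15.5 to 269.7 ± 29.5 (−0.75, adjusted p = 0.0012, or −0.67 without HG3) and had log2 differences of 0.02 and −0.01 in the other lines.

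GFPT1 and other genes of the route are known targets of the stress factors XBP1 and ATF4. The XBP1 transcript, counted in the list below, was lower in high glucose in MDA-MB-175 (log2 change −0.32, limma adjusted p = 2.2e-05). It was also lower in ZR-75-30 (−0.47, adjusted p = 1.7e-08). In HCC1500 it did not pass with all cultures (−0.20, adjusted p = 0.41), and it was lower without HG3 (−0.36, adjusted p = 1.6e-10). Of 10 XBP1 and ER stress genes, 3 rose and 4 fell in MDA-MB-175, 5 rose and 4 fell in ZR-75-30, and 3 rose and 1 fell in HCC1500 (5 and 2 without HG3), with medians of −0.12, 0.12 and 0.25 (0.08 without HG3). The co-chaperone DNAJB9 rose in every line, with log2 changes of 0.54, 0.43 and 0.98 (0.90 without HG3) and a level of 156 ± 3.94 in low and 309.7 ± 35.7 in high glucose in HCC1500. HERPUD1, an ER membrane protein of protein breakdown, rose in the 3 lines as well (0.29, 0.37 and 0.69, the last 0.55 without HG3). PDIA4, a disulfide isomerase of the same compartment, fell in each line (−0.21, −0.24 and −0.47, the last −0.59 without HG3). Of 8 ATF4 genes, 6 rose in MDA-MB-175. In ZR-75-30 7 could be tested, and 2 rose and 3 fell. In HCC1500 3 rose and 1 fell, or 6 and 1 without HG3. The medians were 0.28, −0.05 and 0.51 (0.38 without HG3). DDIT3, the stress factor CHOP, rose in all lines (1.11, 1.19 and 1.04 on the log2 scale, the last 0.72 without HG3). In HCC1500 its level was 208 ± 6.64 in low and 467 ± 247 in high glucose, the latter being 343 ± 7.19 without HG3.

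Genes with a pattern like that of GFPT1, OGT and MGEA5 were read from 13310 expressed genes as Pearson's r over 23 cultures, HG3 left out, after the LG mean of each line was subtracted. The cultures share their glucose groups, so r mainly reflects the size of the change in each line and carries no p. For MGEA5 they were KIAA1683 (r = 0.980), CLDN12 (0.979) and NAMPT (0.978), whose mean log2 changes, like that of MGEA5, were largest in ZR-75-30 and positive in all lines. NAMPT, the rate-limiting enzyme of NAD salvage, changed by 0.38, 0.66 and 0.35 in the order of lines above. For OGT they were NSUN5P1 (0.925), PARP6 (0.916) and PLEKHH2 (0.897), with negative changes in HCC1500 and positive ones in the other lines. NSUN5P1 is a pseudogene whose reads can be shared with its parent gene. For GFPT1 they were RIMS3 (0.902), SCIN (0.898) and GCNT3 (0.896), with GCNT3, a mucin GlcNAc transferase, changing by 1.36 and 2.03 in MDA-MB-175 and ZR-75-30. In HCC1500 without HG3 the mean log2 change was −0.21 for RIMS3, −0.35 for SCIN and 0 for GCNT3.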

How the data were processed

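RNA of 24 cultures was sequenced. The authors deposited 1 table of normalized gene values (signal), which are whole read counts divided by 1 factor per culture. The submitters' processing notes name edgeR and hg38, while the study's methods for its tumors name hg19, and aligner and counter for these cultures are not given in the sources used here. Values divided by the worth of 1 read gave whole reads within 0.01 for 100% of values in all cultures, which edgeR 4.0.16 and DESeq2 1.42.0 used as alternatives. The design had assumed CPM, but the values do not have the total of CPM. Still, limma on log2(value + 1) was kept as the main test.

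Genes with at least 0.5 in at least 4 cultures were tested with limma 3.58.1 (R 4.3.3, intensity trend, Benjamini-Hochberg over all genes, threshold 0.05) in each line, and in a fit of all 24 cultures for averages, line differences and interactions. Fold changes on this scale understate changes of low genes. Ratios had exact two-sided permutation tests. Levels per kb used canonical transcripts of GENCODE lifted to GRCh37 (95.1% of gene IDs matched), and promoters came from RefSeq on GRCh38.p14. The scripts were tested on simulated data. Counting intervals and floors cover counting error only.

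Genes and lists were chosen with earlier results of these data known. Named were all 8 genes, in each list the genes called alike in all 3 lines (at most 3) and the gene with the largest called change, TXNIP, and the 3 genes most alike in pattern to GFPT1, OGT and MGEA5. XBP1 was named in addition, as the factor that its list is named for. No table of protein sequences was used here.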

Additional observations from a re-analysis of the deposited data

Results flagged for a closer look

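Samples far from the rest of their group were looked for in 60 groups of 4 cultures (8 genes and 2 ratios in 6 groups) with Dixon's test at 95%, which chance alone passes in about 1 of 20 groups, and 7 groups held such a culture. HCC1500 HG3 was 3 of them, lowest for GFPT1 (665 normalized read counts, others 941 to 959) and GNPNAT1 (789, others 882 to 901) and highest for NAGK (437, others 231 to 259.6). The part of transcript length in these values was not tested for single genes. ZR-75-30 HG2 was lowest for UAP1 at 2357, where the others lay within 2376 to 2377, so that the gap is small in size. The ratio of OGT to MGEA5 was highest in MDA-MB-175 LG3 (0.805, others 0.728 to 0.738) and in ZR-75-30 HG4 (0.390, others 0.339 to 0.344). The ratio of GFPT1 to NAGK was highest in HCC1500 LG1 (3.67, others 3.11 to 3.20).

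The change with glucose differed between the lines by limma's interaction test for 5 genes. They were GNPNAT1 (adjusted p = 0.0029), PGM3 (0.0027), UAP1 (0.0042), OGT (0.040) and MGEA5 (0.0032). In the order of lines given above, log2 changes were −0.31, −0.60 and −0.25 for GNPNAT1 and 0.10, −0.21 and −0.05 for PGM3. They were −0.20, −0.29 and 0.14 for UAP1, 0.16, 0.30 and −0.27 for OGT, and 0.34, 0.56 and 0.15 for MGEA5. Without HG3 the HCC1500 values were −0.21 for GNPNAT1, −0.06 for PGM3, 0.04 for UAP1, −0.06 for OGT and 0.24 for MGEA5.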

How the results depend on the processing

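HCC1500 depends most on the processing. Its count of 1 of 8 genes called became 0 with median-of-ratios, TMM or CPM scaling, without the intensity trend, with the replicate block, with edgeR or DESeq2 or at an adjusted p under 0.01 (with an unadjusted p under 0.05, limma gave 1 gene under each of these fits but TMM, which gave 0, and edgeR gave 0 and DESeq2 1). It became 2 with the length trend removed and 3 with sample weights, and ran from 0 to 3 with 1 culture left out, 3 being without HG3. Chosen after seeing the data, fits without HG3 gave 5 by median-of-ratios scaling, 5 by edgeR and 3 with the length trend removed. The average over the lines, 3 genes, became 5 with CPM scaling, 7 with sample weights, 2 to 7 with 1 culture left out (7 being without HCC1500 HG3) and, without HG3, 6 by median-of-ratios scaling, edgeR or the length trend. The 5 genes whose change differed between lines became 3 with median-of-ratios or TMM scaling, edgeR and DESeq2 and 2 with CPM scaling. In the shared fit of all 24 cultures, whose spread includes HG3, 2 genes passed in MDA-MB-175 instead of 4 and 4 in ZR-75-30 instead of 7, OGT and UAP1, and GFPT1, OGT and NAGK, being lost.

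Signs turned as follows on the log2 scale, for differences that had not passed or under CPM scaling. With 1 culture left out, NAGK ran from −0.107 to 0.0247 in MDA-MB-175 (positive without HG2) and from −0.296 to 0.00973 in HCC1500 (positive without HG2 or HG4), and GFPT2 ran from −0.385 to 0.0532 in ZR-75-30 (positive without HG3). With the length trend removed, the log2 change of GFPT1 in HCC1500 was 0.00684, and the ratio of GFPT1 to NAGK changed by 0.0633 there. Without HG3 that of GFPT1 was 0.0885 by median-of-ratios scaling and 0.0815 by edgeR. The log2 change of PGM3 in HCC1500 was 0.0903 with the length trend removed and 0.00656 by DESeq2, and without HG3 it was 0.0600, 0.0564 and 0.00104 by median-of-ratios scaling, edgeR and with the length trend removed. The log2 change of OGT in HCC1500 was 0.0631, 0.0564 and 0.0201 in the same fits without HG3. On average over the lines GFPT1 was −0.00592 with CPM scaling, and PGM3 was 0.000263 by median-of-ratios scaling without HG3. In low glucose with CPM scaling, GNPNAT1 was 0.125 for MDA-MB-175 over ZR-75-30, and GNPNAT1, MGEA5 and NAGK were −0.0150, −0.0898 and −0.0735 for ZR-75-30 over HCC1500. The cause was not tested. Same-numbered LG and HG cultures did not deviate together (mean r 0.036, 0.012 and 0.024), so the numbers were not taken as pairs. With the replicate block, 4, 7 and 0 genes passed in the order of lines above, and 4 pairs cannot give a ratio a p under 0.125.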
